A study of Mus musculus with 8 samples.

Results

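The genes described here encode enzymes of cholesterol synthesis: Hmgcs1, Mvk, Idi1, Fdps, Fdft1, Sqle, Lss, Cyp51 and Dhcr7. Their probes were found by gene symbol in the annotation of the array platform, without regard to the measured values. The genes themselves were chosen with earlier results of these arrays known. Of the 9 genes 8 had a probe, 1 each, so that 8 of the 21582 probes on the array are described; no probe carried the symbol Hmgcs1, and that gene was not analysed here. The probes are those of Mvk (AF137598), Idi1 (BC004801), Fdps (AF309508), Fdft1 (NM_010191), Sqle (NM_009270), Lss (AK012813), Cyp51 (NM_020010) and Dhcr7 (NM_007856).

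The cells were mouse neurospheres, clusters of neural stem cells and their progeny that grow unattached, derived from the cortex at gestational day 12.5. Ethanol-exposed neurospheres grew in 320 mg/dl ethanol for 5 days while they proliferated and then differentiated for 3 days without ethanol. Control neurospheres met no ethanol. Both grew in serum-free medium with basic fibroblast growth factor, epidermal growth factor (EGF) and leukaemia inhibitory factor (LIF), and both differentiated when EGF and LIF were withdrawn while fibroblast growth factor stayed in the medium; strain, sex and the number of embryos or cultures were not stated in the labels. RNA of both was hybridised together on 8 two-colour arrays, with ethanol-exposed RNA in Cy5 on 4 (replicates 5 to 8) and in Cy3 on the other 4 (replicates 1 to 4). Bulk RNA cannot tell fewer cells of a type from less RNA per cell.

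Cholesterol cannot cross from blood to brain in useful amounts, and neural cells make their own. Synthesis runs from acetyl-CoA through mevalonate to isoprenoid units, which are joined into squalene, closed into the sterol ring as lanosterol and trimmed to cholesterol. The enzymes' genes are classic targets of the transcription factor SREBP-2, which is released when membrane sterol is low and which binds sterol regulatory elements, usually beside the CCAAT-binding factor NF-Y. Newly made cholesterol also modifies Hedgehog ligands, and loss of DHCR7 in humans causes the malformation disorder Smith-Lemli-Opitz syndrome.

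Promoter windows of 250 bases before to 50 bases after a gene's start were taken from RefSeq (GRCm38.p6), whose table matched 6 of the 9 genes with 8 windows. Those of Mvk (chr5:114444019-114444318, plus strand) and Idi1 (chr13:8885356-8885655, plus strand) are shown because both genes act on the mevalonate branch and their probes lay on opposite sides of the array median. Capitals mark the letters of the CCAAT box (CCAAT) and of the GC box (GGGCGG), searched on both strands; the motifs did not overlap each other in either window.
Mvk: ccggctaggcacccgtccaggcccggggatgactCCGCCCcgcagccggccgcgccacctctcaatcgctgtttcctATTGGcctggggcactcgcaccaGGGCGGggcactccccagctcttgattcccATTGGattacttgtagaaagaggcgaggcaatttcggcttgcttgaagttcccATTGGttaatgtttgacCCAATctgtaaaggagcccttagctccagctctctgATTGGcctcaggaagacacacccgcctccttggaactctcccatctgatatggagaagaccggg
Idi1: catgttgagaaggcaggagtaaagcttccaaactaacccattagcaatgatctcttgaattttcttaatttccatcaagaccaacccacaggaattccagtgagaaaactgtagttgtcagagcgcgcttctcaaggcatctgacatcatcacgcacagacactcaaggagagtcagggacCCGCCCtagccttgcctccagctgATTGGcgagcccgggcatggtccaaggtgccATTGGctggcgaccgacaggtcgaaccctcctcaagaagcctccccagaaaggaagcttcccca

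The Mvk window held 5 CCAAT boxes and 2 GC boxes, and the Idi1 window 2 CCAAT boxes and 1 GC box. In both, the CCAAT box nearest the start began 14 bases before it. Of 32851 windows of the same length in the table, 37.4% held a CCAAT box and 35.7% a GC box. A sterol regulatory element written as TCACNCCAC stood in 1.24% of all windows and in that of Hmgcs1, as TCACCCCAC, beginning 137 bases before the start. The element stood in no window of Mvk, Idi1, Lss, Cyp51 or Dhcr7, and Fdps, Fdft1 and Sqle had no window. The windows of Lss and Cyp51 each held 1 CCAAT box, and 1 of the 3 of Dhcr7 held 2. A match to these letters is a description of the window and does not show that a factor binds there.

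The deposited values are log2 ratios of the 2 channels, and the labels do not say which channel was divided by which. Ratios were centred on each array's median, and each probe's 8 values were split by a linear model (limma) into a part shared by both dye orientations and a part that turns with the orientation. The shared part holds the difference between ethanol-exposed and control cells if the ratios are condition over condition; the turning part holds it if they are dye over dye. A positive shared part is a ratio above the array median on average, a positive turning part a higher ratio with ethanol in Cy5, and neither says which cells had more transcript. Across arrays 75.4% to 87.1% of probes had a computable ratio, all 8 enzyme probes had one on all 8 arrays, as did 48.6% of all probes, and 15345 probes with at least 3 values per orientation were tested. Correlations between arrays over these probes were 0.14 to 0.33 with ethanol in Cy5, 0.25 to 0.37 with ethanol in Cy3, and -0.28 to 0.07 between the orientations. Of 56 probes for markers of the cell types such cultures could hold, 40 were tested and none passed in either part. Tested were 10 of 11 neural progenitor, 6 of 8 neuronal, 5 of 7 astrocyte and 7 of 9 oligodendrocyte lineage probes. So were 5 of 6 endothelial and mural, 3 of 4 erythroid, 2 of 5 microglia and macrophage and 2 of 6 meningeal fibroblast probes. At an unadjusted p under 0.05 stood 5 of the 40 in each part (12.5%). In the shared part they were the neuronal gene Dcx at -1.88 ± 0.46 (adjusted p = 0.180, limma), the astrocyte gene S100b at -1.28 ± 0.36, the haemoglobin gene Hba-a1 at -1.43 ± 0.48 and negative on 8 of 8 arrays, 1 of 2 tested probes of the glutamate transporter Slc1a3 at -0.98 ± 0.33 (the other at 0.01), and the intermediate filament gene Vim at 0.98 ± 0.32 and positive on 8 of 8. The lists of these genes did not all share their sign. The 6 tested neuronal probes had a shared median of 0.19 with 3 positive, and the 10 progenitor probes 0.18 with 7 positive. The 5 astrocyte probes had a shared median of -0.81 with 1 positive, and the 3 erythroid probes 0.31 with 2 positive. In the turning part the largest was 1 of 2 tested probes of the progenitor gene Pax6, at 3.82 ± 0.84 (adjusted p = 0.0572, limma). The other Pax6 probe read 0.56 ± 0.56. S100b stood here too, at 1.24 ± 0.36 (adjusted p = 0.139, limma), about as large as its shared part. The endothelial gene Cdh5 stood at -1.51 ± 0.39 with values on 6 arrays. The rest were the oligodendrocyte lineage gene Sox10 at 1.15 ± 0.43 and the neuronal gene Syp at 0.80 ± 0.31. Here too the lists of these genes did not all share their sign. The turning median was -0.07 with 3 of 10 positive for progenitor probes and -0.04 with 2 of 5 for astrocyte probes. For endothelial and mural probes it was -0.03 with 2 of 5 positive. For oligodendrocyte lineage probes it was 0.15 with 5 of 7 positive, and for neuronal probes 0.19 with 3 of 6. Ratios give no level, so presence or absence of these cells could not be checked further, and the part of cell composition and of these markers in the results was not tested.

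Most of the enzyme probes lay on the positive side of the array median. In the shared part 7 of 8 were positive, from 0.22 for Lss to 1.35 for Fdps, and Idi1 alone was negative, at -1.59; their median was 0.68. Over all probes tested 46.1% were positive with a median of -0.06. After Benjamini-Hochberg adjustment over all 15345 probes, limma called 0 of the 8 enzymes, with adjusted p from 0.231 to 0.882, and 0% of all probes. At an unadjusted p under 0.05 stood 5 of the 8, Fdps, Idi1, Mvk, Fdft1 and Cyp51, against 13.9% of all probes. Without replicate 7 the 5 became 3, Fdps, Idi1 and Mvk. The genes were picked when results of these arrays were already known, so the comparison with all probes describes them and supports nothing further.

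**Figure D1:**
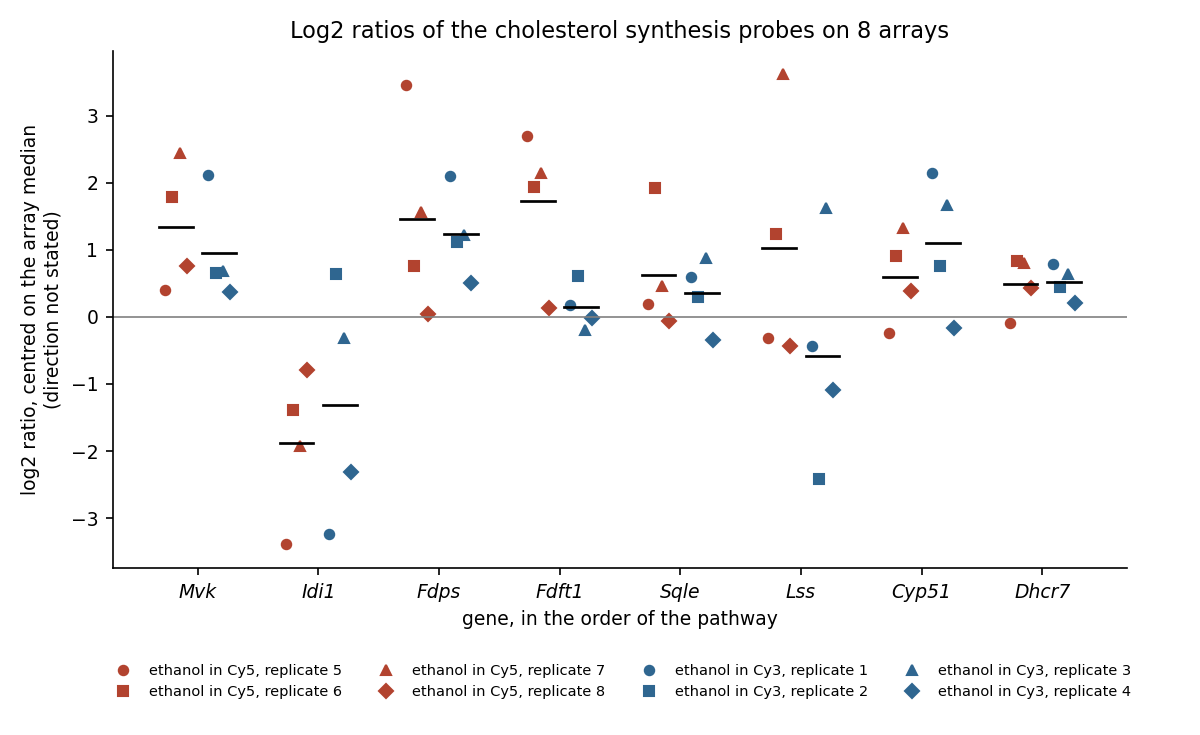
Log2 ratios of the 8 enzyme probes, centred on each array's median, on the vertical axis, with genes in pathway order on the horizontal axis; points are single arrays, with ethanol in Cy5 left and in Cy3 right of each gene, and black bars are the means of 4 arrays. Mvk and Fdps lie above 0 on 8 of 8 arrays and Idi1 below 0 on 7 of 8.

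Mvk encodes mevalonate kinase, which adds the first phosphate to mevalonate. Its log2 ratios were 0.40, 1.79, 2.44 and 0.76 on replicates 5 to 8, with ethanol in Cy5, and 2.12, 0.65, 0.69 and 0.38 on replicates 1 to 4, with ethanol in Cy3. All 8 were positive and the orientations overlapped, with means of 1.35 ± 0.94 and 0.96 ± 0.78 in that order (SD, n = 4 each). The shared part was 1.15 ± 0.35 (SE, 95% interval 0.38 to 1.93), or 2.22-fold, with limma's unadjusted p at 0.00776 and adjusted p at 0.231. It is a difference between the cells, of unknown direction, only if the ratios are condition over condition. The turning part was 0.19 ± 0.35 (adjusted p = 0.854, limma).

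Idi1 encodes isopentenyl-diphosphate isomerase, which converts the first isoprenoid unit into its reactive isomer. Its log2 ratios were -3.39, -1.39, -1.93 and -0.79 on replicates 5 to 8, with ethanol in Cy5, and -3.24, 0.63, -0.31 and -2.32 on replicates 1 to 4, with ethanol in Cy3. It was negative on 7 of 8 arrays, replicate 2 being the exception, and was the lowest of the 8 enzymes on those 7. The lowest values came from replicates 5 and 1, the arrays coded b3 and a3. The shared part was -1.59 ± 0.48 (SE; 95% interval -2.66 to -0.53), 3.02-fold, with an unadjusted p of 0.00758 and an adjusted p of 0.231 in limma; it lay between -1.92 and -1.27 when single arrays were left out. The turning part was -0.28 ± 0.48 (adjusted p = 0.843, limma).

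Fdps encodes farnesyl diphosphate synthase, which joins isoprenoid units into the precursor of sterols, dolichol, ubiquinone and prenylated proteins. Its log2 ratios were 3.46, 0.76, 1.57 and 0.04 on replicates 5 to 8, with ethanol in Cy5, and 2.10, 1.11, 1.22 and 0.51 on replicates 1 to 4, with ethanol in Cy3. Every value was positive, with the lowest on replicate 8 and the highest on replicate 5, and the orientations overlapped. The shared part was 1.35 ± 0.40 (SE; 95% interval 0.45 to 2.24), 2.54-fold, with an unadjusted p of 0.00740 and an adjusted p of 0.231 in limma. It was 1.01 without replicate 5 and 1.77 without the 3 arrays whose codes end in r (replicates 3, 4 and 8), a mark that the labels do not explain. The turning part was 0.11 ± 0.40 (adjusted p = 0.939, limma).

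The difference between the Fdps and Idi1 probes within an array does not depend on how the array was centred. It was 6.85, 2.15, 3.50 and 0.83 on replicates 5 to 8, with ethanol in Cy5, and 5.34, 0.48, 1.53 and 2.83 on replicates 1 to 4, with ethanol in Cy3, on the log2 scale. Fdps thus stood above Idi1 on 8 of 8 arrays, with a median difference of 2.49. The 2 genes act in consecutive steps, Idi1 making a substrate of Fdps. Mvk likewise stood above Idi1 on 8 of 8 arrays, by 0.02 on replicate 2 and by at most 5.35. These pairs were picked after their values were seen, and no test was made. Idi1 and Fdps also had the lowest correlation of the 28 pairs of enzymes, with Pearson's r of -0.61 over the 8 arrays, a description only.

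Fdft1 encodes squalene synthase, the first step committed to sterols. Its log2 ratios were 2.70, 1.94, 2.15 and 0.13 on replicates 5 to 8, with ethanol in Cy5, and 0.17, 0.61, -0.19 and -0.02 on replicates 1 to 4, with ethanol in Cy3. With ethanol in Cy5, 3 of 4 arrays lay above all 4 of those with ethanol in Cy3, and replicate 8 fell among them; the means were 1.73 ± 1.11 and 0.15 ± 0.34 in that order (SD, n = 4 each). Both parts differed from 0 at an unadjusted p under 0.05 and neither passed the adjustment: the shared part was 0.94 ± 0.34 (adjusted p = 0.275, limma) and the turning part 0.79 ± 0.34 (unadjusted p = 0.0427, adjusted p = 0.338, limma). The turning part lay between 0.63, without replicate 5, and 1.06, without replicate 8, when single arrays were left out. Leaving out any 1 of replicates 1 to 7 raised its unadjusted p to between 0.0503 and 0.121 (limma).

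Sqle encodes squalene epoxidase, the oxygen-dependent step that is rate-limiting beside HMG-CoA reductase. The probe's log2 ratios were 0.19, 1.92, 0.46 and -0.07 on replicates 5 to 8, with ethanol in Cy5, and 0.59, 0.29, 0.88 and -0.35 on replicates 1 to 4, with ethanol in Cy3. The highest value came from replicate 6, and the shared part was 0.49 ± 0.32 (SE; 95% interval -0.23 to 1.21; adjusted p = 0.520, limma), or 0.27 without replicate 6.

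Lss encodes lanosterol synthase, which closes the sterol rings. The 8 arrays gave log2 ratios of -0.32, 1.24, 3.62 and -0.44 on replicates 5 to 8, with ethanol in Cy5, and -0.43, -2.41, 1.63 and -1.10 on replicates 1 to 4, with ethanol in Cy3. It was the most scattered of the 8, with a residual SD of 1.79 against a median of 1.25 over all probes tested. The shared part was 0.22 ± 0.55 (95% interval -1.003 to 1.45; adjusted p = 0.882, limma) and became negative without replicate 7 (-0.21) or without replicate 3 (-0.14). The turning part was 0.80 ± 0.55 (95% interval -0.43 to 2.03; adjusted p = 0.578, limma), or 0.37 without replicate 7, 0.50 without replicate 2, 1.17 without replicate 3 and 1.47 without the 3 r arrays.

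Cyp51 encodes lanosterol 14-alpha-demethylase, the cytochrome P450 of the pathway. The probe read log2 ratios of -0.24, 0.91, 1.33 and 0.39 on replicates 5 to 8, with ethanol in Cy5, and 2.15, 0.76, 1.67 and -0.17 on replicates 1 to 4, with ethanol in Cy3. It was positive on 6 of 8 arrays, and the shared part was 0.85 ± 0.35 (SE; 95% interval 0.07 to 1.63; unadjusted p = 0.0347, adjusted p = 0.322, limma).

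Dhcr7 encodes 7-dehydrocholesterol reductase, which catalyses the last step to cholesterol. Log2 ratios were -0.09, 0.84, 0.81 and 0.43 on replicates 5 to 8, with ethanol in Cy5, and 0.79, 0.45, 0.63 and 0.21 on replicates 1 to 4, with ethanol in Cy3. Its residual SD, 0.35, was below that of all but 2.57% of the probes tested, and 7 of 8 values were positive. The shared part was 0.51 ± 0.27 (SE; 95% interval -0.10 to 1.12; adjusted p = 0.434, limma) and the turning part -0.01 ± 0.27 (95% interval -0.62 to 0.60).

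**Figure D2:**
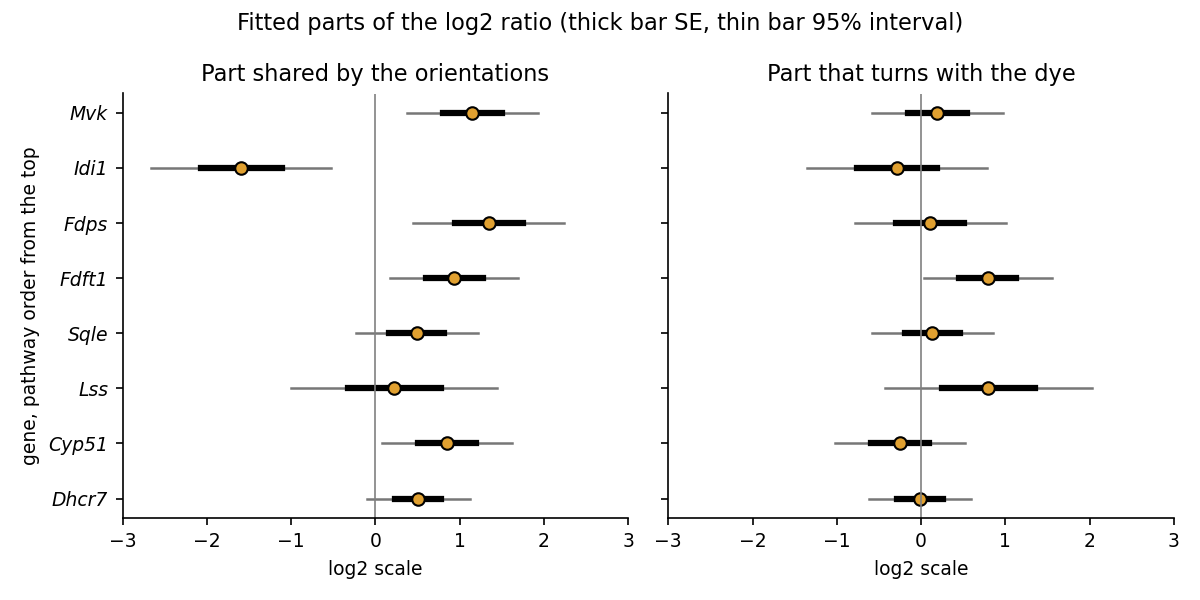
Fitted parts of the log2 ratio for the 8 enzyme probes, the shared part left and the turning part right, with the log2 scale on the horizontal axis; points are estimates over 8 arrays, thick bars the SE and thin bars the 95% interval. The shared interval lies off 0 for Fdps, Mvk, Fdft1, Cyp51 and, on the negative side, Idi1, and the turning interval for Fdft1.

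The part that turns with the dye was close to that of other probes. Turning parts lay between -0.28 for Idi1 and 0.80 for Lss, 5 of 8 positive, with a median of 0.12, against 56.9% positive and a median of 0.11 over all probes tested. None of the 8 passed (adjusted p 0.338 to 0.992, limma), where 1.56% of all probes did. At an unadjusted p under 0.05 stood 1 of 8, Fdft1, against 13.8% of all probes, which is near the background. In 11 of 20 alternatives, 7 of them the removal of a single array, that count was 0. For none of the 8 did the orientations lie fully apart, as they did for 10.9% of all probes. The sign was the same on all 8 arrays for 2 of 8, Mvk and Fdps, against 3.57% of all probes with a single sign on every array that had a value.

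The arrays differed in how far the enzymes lay from the median. The median over the 8 enzymes was 0.05, 1.07, 1.45 and 0.08 on replicates 5 to 8, with ethanol in Cy5, and 0.69, 0.62, 0.78 and -0.09 on replicates 1 to 4, with ethanol in Cy3. It was above 0 on 7 of 8 arrays, and the orientations overlapped. Replicates 5, 8 and 4 lay near 0, the first with 4 of 8 enzymes positive, Fdps and Fdft1 among them at 3.46 and 2.70. The enzymes did not vary as a block: Pearson's r over the 8 arrays ran from -0.61 to 0.84 over the 28 pairs, with a median of 0.26. The late enzymes Cyp51 and Dhcr7 had the highest, 0.84, and Mvk and Dhcr7 reached 0.82, whereas Fdps and Sqle, neighbours but for Fdft1, had 0.00. Probes on an array share its RNA, labelling and centring, and these values carry no test.

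Among 8672 other named probes with values on all 8 arrays, the patterns most like each enzyme were, by Pearson's r, Dlx4 and Slc25a30 for Mvk (0.98 and 0.94), Myadm and Sdc2 for Idi1 (0.95 and 0.94), Timm10b and Cacng2 for Fdps (0.95 and 0.94), and Fau and Kxd1 for Fdft1 (0.96 and 0.94). They were Coq7 and Sac3d1 for Sqle (0.99 and 0.98), Selenon and Akr1a1 for Lss (0.93 for both), Gemin6 and Kalrn for Cyp51 (0.96 and 0.95), and Taf6 and Zfr for Dhcr7 (0.97 and 0.96). These were the highest r of 8672 over only 8 arrays, so values this high can arise without any link, and none was tested. The highest r among the 28 pairs of enzymes, 0.84, came from far fewer comparisons and cannot be set against them.

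Other genes of sterol and lipid metabolism were set beside the enzymes from lists chosen with earlier results of these arrays known. They covered 49 genes with 52 probes, of which 45 were tested, and none passed in either part (limma, smallest adjusted p 0.268 shared and 0.0862 turning). At an unadjusted p under 0.05 stood 6 of 45 in the shared part (13.3%) and 5 of 45 in the turning part (11.1%), against 13.9% and 13.8% of all probes, which is near the background. In the shared part the 9 other probes for cholesterol synthesis had a median of 0.53 with 7 positive, close to the 0.68 of the 8 enzymes. Tm7sf2, Mvd, Pmvk, Nsdhl and Ebp lay between 0.53 and 0.67, the decarboxylase Mvd and phosphomevalonate kinase Pmvk, which act between Mvk and Idi1, at 0.59 ± 0.36 and 0.59 ± 0.33. The sterol ketoreductase Hsd17b7 read -0.79 ± 0.41, so that Idi1 was not the only negative enzyme. None of the 9 stood at an unadjusted p under 0.05.

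Genes that move or remove cholesterol lay mostly on the negative side of the median. Uptake, transport and efflux genes had 11 tested probes, 2 of them positive in the shared part, with a median of -0.55, and the 3 tested probes for storage and turnover were all negative, with a median of -0.72. The efflux pumps Abca1 and Abcg1 read -1.50 ± 0.54 and -0.76 ± 0.30 (adjusted p = 0.275 and 0.305, limma) and were negative on 7 of 7 and 8 of 8 arrays. Abca1's values were -0.84, -3.62 and -0.25 on replicates 5, 7 and 8, with ethanol in Cy5, and -1.64, -0.16, -3.36 and -0.58 on replicates 1 to 4, with ethanol in Cy3; its shared part was -0.99 without replicate 7. The neuronal cholesterol 24-hydroxylase Cyp46a1, through which the brain disposes of cholesterol, read -1.06 ± 0.46 with values on 7 arrays (adjusted p = 0.344, limma). The high-density lipoprotein receptor Scarb1 stood out on the positive side at 1.37 ± 0.49 (adjusted p = 0.268, limma), with 3.15 and 3.20 on replicates 6 and 7 and 3.14 on replicate 3, while the other 5 arrays held -0.27 to 0.59. The difference between these lists and the enzymes was not tested.

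Regulators of the pathway showed no common side. Sterol sensing genes had 7 tested probes, 4 positive in the shared part, with a median of 0.06. The 2 probes of Srebf2, the gene of SREBP-2, read -0.26 ± 0.33 and 0.50 ± 0.29, and that of Insig1, a target that retains SREBP in the endoplasmic reticulum, 0.18 ± 0.35. The liver X receptor Nr1h3, a sterol-activated regulator of efflux, had a turning part of 0.86 ± 0.32 (adjusted p = 0.267, limma). Other isoprenoid enzymes had a shared median of 0.34 with 4 of 6 positive, among them the ubiquinone enzyme Coq2 at 0.75 ± 0.32 (adjusted p = 0.340), while Pdss2 of the same route had a turning part of -1.07 ± 0.41 (adjusted p = 0.283). Fatty acid synthesis genes had a shared median of -0.09 with 4 of 9 positive; ATP citrate lyase Acly, which supplies acetyl-CoA to both pathways, read 1.04 ± 0.44 (adjusted p = 0.334), or 0.63 without replicate 5.

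In the turning part Npc2, the carrier that takes cholesterol out of lysosomes, had the smallest p of these lists. Its log2 ratios were 2.32, 0.31, 1.28 and 3.09 on replicates 5 to 8, with ethanol in Cy5, and -1.93, -0.43, -1.13 and -1.48 on replicates 1 to 4, with ethanol in Cy3. The orientations lay fully apart, as they did for 10.9% of all probes tested, Stard4 and Nr1h3 among them. The turning part of Npc2 was 1.50 ± 0.37 (adjusted p = 0.0862, limma). With the values as deposited it was 1.81 (adjusted p = 0.0399, limma). That setting left the array medians in the ratios and raised the median turning part of all probes from 0.11 to 0.42. The sterol carrier Stard4 read 1.78 ± 0.56 with values on 6 arrays (adjusted p = 0.205, limma). Of 2 tested probes of acetyl-CoA carboxylase, Acaca, each with values on 7 arrays, 1 had a turning part of -1.43 ± 0.58 (adjusted p = 0.323), or -0.65 without replicate 3, and the other, of opposite sign, 0.35.

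**Figure D3:**
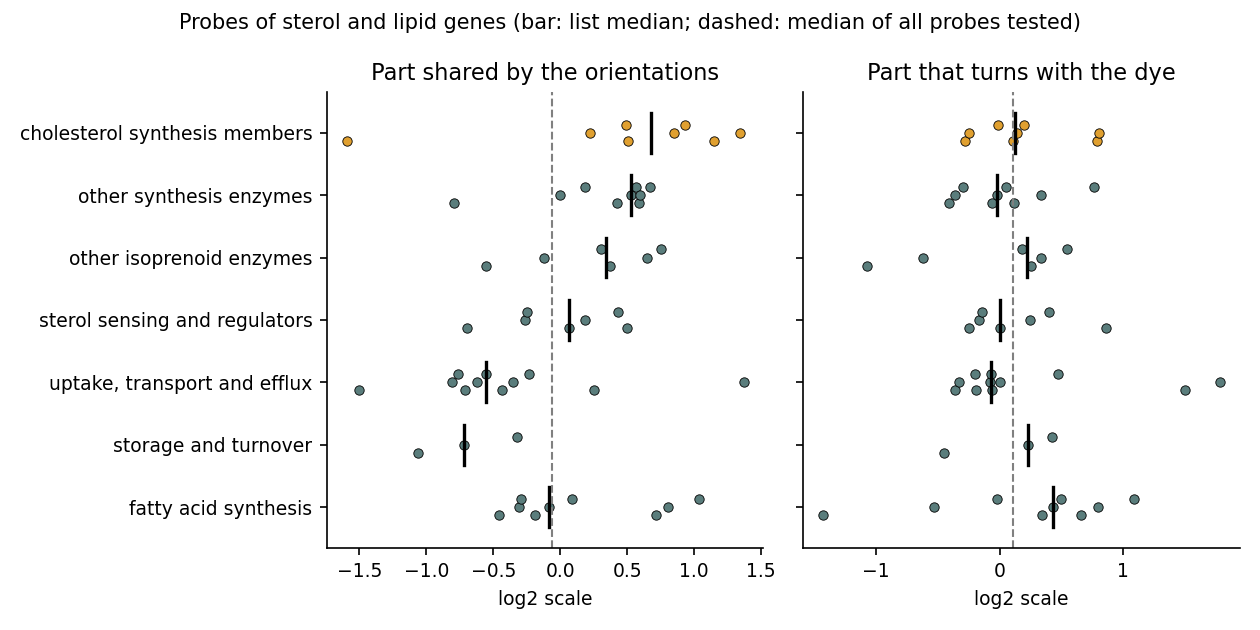
Shared part (left) and turning part (right) of every tested probe of the 8 enzymes and of 6 lists of related genes, with the log2 scale on the horizontal axis and lists on the vertical; black bars are list medians and the dashed line is the median of all 15345 probes tested. In the shared part the medians run from 0.68 for the enzymes and 0.53 for other synthesis enzymes to -0.55 for uptake, transport and efflux and -0.72 for storage and turnover.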

How the data were processed

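Per the labels' protocols, total RNA was extracted with Trizol, purified on RNeasy columns and labelled with a Genisphere 3DNA kit. The authors deposited log2 ratios, 1 per probe and array, without intensities; the labels do not name the scanner, the background correction, the normalization or the direction of the ratio. In the deposited table every ratio under 0.1 equalled a value rounded to 3 decimals plus 1 constant per array (tolerance 0.0011, log2). Exact 0 (2565 to 5200 values per array) and each array's highest value (108 to 464 probes) were taken as missing. Array medians were 0.02 to 0.52 with ethanol in Cy5 and -0.44 to -0.32 with ethanol in Cy3, and were subtracted.

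All probes with at least 3 values per orientation were fitted with limma 3.58.1 (R 4.3.3; lmFit, eBayes), with p-values adjusted over all of them at a threshold of 0.05; the fit was tested on simulated data. Depth has no counterpart on arrays: their number limits the precision. Whether arrays stem from different cultures is not stated, so p-values reflect only array-to-array spread, which may be technical. Arrays sharing a code number (b3 and a3, b5 and a5, b1r and a1r) did not deviate together (r = 0.01, -0.02 and 0.04). Symbols of genes outside the 9 were updated by Entrez number through a GRCm38.p6 table (15957 of 16635 probes with 1 symbol). Every probe of the 9 genes is named; of the related genes, those at an unadjusted p under 0.05 in either part, and some others as examples chosen after their values were seen. Likeness took the 2 named genes with the highest r. Genes and lists were chosen with earlier results of these data known. Alternatives are given in the closing section.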

Additional observations from a re-analysis of the deposited data

How the results depend on the processing

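None of the 8 enzymes passed the adjusted threshold in the shared part under 19 alternatives, or in the turning part under 20. Of 312 recomputed values 297 kept their sign. The median shared part stayed between 0.57 and 0.86, and between 0.57 and 0.78 when single arrays were left out; the median turning part lay between -0.05 and 0.44. Signs changed mainly for turning parts near 0. With the values as deposited, the array medians stayed in the ratios, which raised the turning part of each enzyme alike. Cyp51 turned to 0.0675, Dhcr7 to 0.31 and Idi1 to 0.034, so that all 8 turning parts were positive, and the median of all probes was then 0.42. For sign changes under the other settings the cause was not tested. With exact 0 kept, Dhcr7 turned to 0.23, and with the r array as a covariate Fdps turned to -0.0444. Leaving out single arrays gave turning parts of -0.0695 to 0.085 for Dhcr7, -0.22 to 0.35 for Fdps, -0.61 to 0.0394 for Idi1 and -0.0803 to 0.25 for Sqle, and shared parts of -0.21 to 0.53 for Lss. With the code number as a replicate block among 6 arrays, the turning part of Sqle was -0.20. For the related genes the median turning part was 0.33 and 1 probe, Npc2, passed with the values as deposited, against 0.00 and 0 after centring. Signal over background cannot be had from ratios, so bright and dim probes could not be told apart.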
